A study of Staurois parvus with 11 samples.

Results

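The genes described here are the ligands, receptors and secreted regulators of the WNT, BMP and TGF-beta, FGF and IGF pathways in the Bornean rock frog, Staurois parvus. They are the transcripts whose annotated name begins with WNT, FZD, SFRP, DKK, BMP, GDF, FGF, TGFB, INHB, IGF, MSTN, NOG, GREM or ACVR, and 100 of the 23777 transcripts counted met that rule. RNA was sequenced from the brain (2 libraries), spinal cord (4) and leg muscle (5) of adult males from a captive colony, in a species whose males wave their hind feet at rivals. No treatment or engineered allele is named for any group, the brain was taken whole, and leg muscle was thigh muscle. The study compared the tissues pair by pair to find transcripts particular to each part of the neuromuscular system.

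These pathways pattern the vertebrate embryo and stay active in adult tissue. WNT ligands bind Frizzled receptors together with LRP5 or LRP6 and stabilise beta-catenin, while secreted proteins such as SFRP and DKK hold them back. BMP, GDF, activin and TGF-beta ligands act through paired type I and type II receptor kinases and SMAD proteins, and noggin and gremlin bind BMPs outside the cell. FGFs signal through receptor tyrosine kinases, and IGFs through the IGF and insulin receptors under the control of binding proteins. In vertebrate muscle these signals bear on muscle stem cells, fibre growth and connective tissue, and in the nervous system on neural progenitors, glia and synapses.

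Reads counted in transcripts ranged from 15728514 to 22686688 in brain, from 12339432 to 18607450 in spinal cord and from 31242008 to 56082082 in leg muscle. Expression is given as CPM, a read count brought to a common library size of 1000000, after normalisation of the libraries with TMM (trimmed mean of M-values) factors, and its SD is taken over the libraries of a tissue. Log2FC values carry the standard error (SE) of the fit, and adjusted p-values come from edgeR's quasi-likelihood test with Benjamini-Hochberg correction over 13923 transcripts, at a threshold of 0.05. The libraries are labelled as biological replicates, but no label ties one to a frog, so p-values measure the spread between these samples. Neuron markers summed to 5472 to 8380 CPM in spinal cord, 1495 to 1706 in brain and 1.04 to 12.4 in leg muscle. Single markers did not all follow that order. Neurofilament rows nefl and NEFM (006408-RA) were at 1651 to 3583 and 2120 to 3876 CPM in spinal cord. In brain they were at 256 to 259 and 262 to 423. Values of elavl4, Stmn2 and NEFM (005510-RA) overlapped between brain and spinal cord. SNAP25 was higher in brain, at 2.77 to 3.04 CPM against 0.288 to 0.936. These sums thus do not rank brain and spinal cord by neuron content. Skeletal muscle markers summed to 161346 to 517798 CPM in leg muscle. Skeletal muscle markers also reached 1283 and 1560 CPM in spinal cord libraries 1 and 2, the only libraries whose file names give lane 2, against 177 and 53.3 in spinal cord 3 and 4. Leg muscle 5 stood apart with 21015 CPM of fibroblast markers against 437 to 2529 in the other leg muscles. Of that sum COL1A2 alone made 17716. LUM was at 383 CPM against 32.6 to 105, DCN at 266 against 38.5 to 94.1 and pdgfra at 93.5 against 55.3 to 86.4. Leg muscle 3 stood apart with 790 CPM of skin epithelium markers against 44.2 to 208. In such bulk tissue, fewer cells of a type and less RNA per cell cannot be told apart.

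Of the 100 members, 58 had reads in all 11 libraries and 85 passed the filter on low counts, 85% against 58.6% of all transcripts. The annotation gave each the name of its closest protein in another species, most often Xenopus laevis (37) or human (21). Names are repeated on 28 rows, which carry 11 names, such as IGF2R on 7 rows and TGFBR2 on 3. Such rows may be pieces or copies of 1 gene, so their values are uncertain and are given with their transcript IDs. Read counts also depend on transcript length, and since no lengths were used here, levels are compared between tissues and not between genes.

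Leg muscle differed from both nervous tissues in many of these genes, in both directions. Between brain, with only 2 libraries, and spinal cord, 1 member was called. Others, such as GDF11 and FGF1, had no overlap between those tissues without passing. With 2 and 4 libraries, values can fall apart in this way by chance, and the share of all transcripts without overlap is not given here. Between brain and spinal cord, 1 of the 85 members tested passed the threshold, fzd8, which was higher in brain, against 2.03% of all transcripts (1.19% higher in brain and 0.84% higher in spinal cord). No member was higher in spinal cord by this test, although DESeq2 called 4 higher there. At an unadjusted p under 0.05 in edgeR, 9 of the 85 members were higher in spinal cord and 7 in brain. Over all 13923 transcripts these numbers were 1003 and 921. Between brain and leg muscle, 31 members passed, 14 higher in brain and 17 higher in leg muscle, or 36.5% against 50.7% of all transcripts (28.7% higher in brain and 21.9% in leg muscle). Between leg muscle and spinal cord, 36 members passed, 22 higher in leg muscle and 14 higher in spinal cord, or 42.4% against 55.6% of all transcripts (25.7% higher in leg muscle and 29.9% in spinal cord). The median Log2FC over the members was -0.22 for brain over spinal cord, -0.21 for brain over leg muscle and 0.25 for leg muscle over spinal cord, against 0, 0.11 and -0.10 over all transcripts. The members were thus called less often than transcripts as a whole in both comparisons with leg muscle, and this was not tested. By direction, 16.5% were higher in brain and 20% in leg muscle between those tissues. Between leg muscle and spinal cord, 25.9% were higher in leg muscle and 16.5% in spinal cord. The shares higher in leg muscle thus lay near those of all transcripts. Between brain and spinal cord, 1 call is too few to compare shares. Without brain 1, 9 members were higher in brain than in leg muscle and 10 lower, and without brain 2, 9 were higher. Without spinal cord 1 and 2 together, 12 were higher in leg muscle than in spinal cord. Scaling by library totals alone in place of TMM moved the median of all transcripts by 1.86 for brain over leg muscle and by -1.85 for leg muscle over spinal cord, and split the calls into 35 brain and 6 leg muscle, and 9 leg muscle and 45 spinal cord. The sign of the Log2FC turned with library totals in 30 of the 85 members for brain over leg muscle, 3 of them called with TMM, and in 26 for leg muscle over spinal cord, 7 of them called. All directions below are relative to the TMM scaling.

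**Figure D1:**
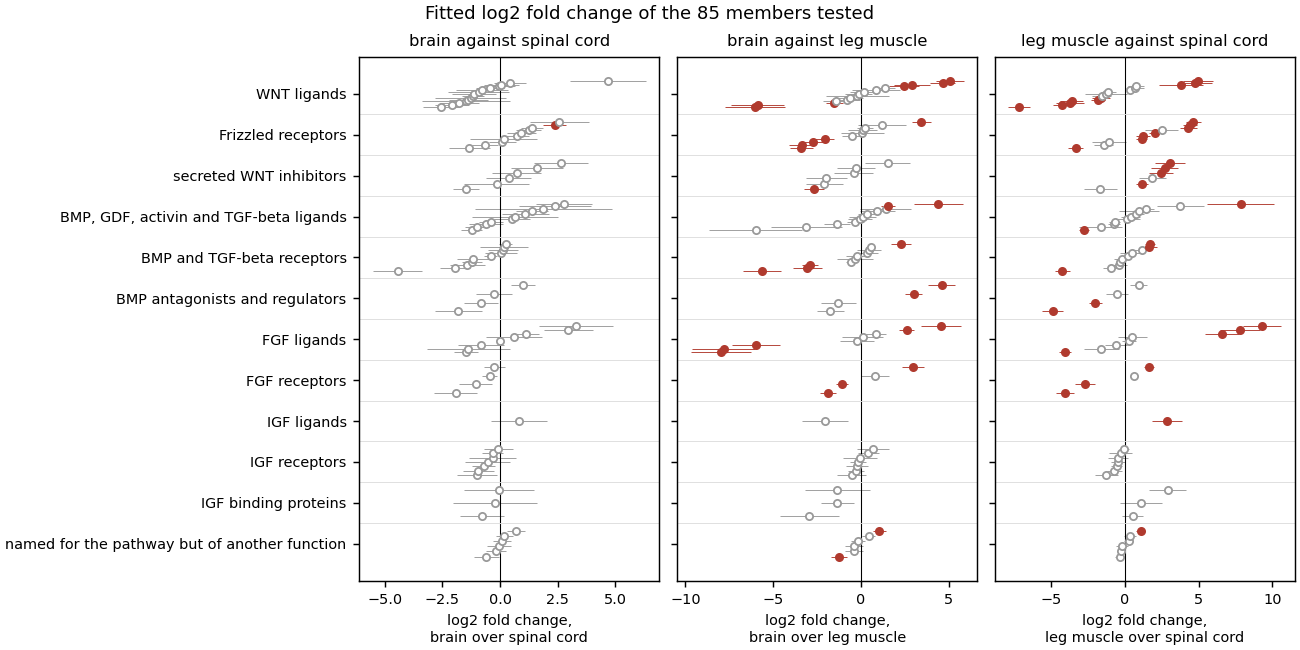
Fitted log2 fold change of the 85 members tested, 1 panel per comparison, grouped by role on the vertical axis. Points are members, bars are 1 SE of the fit, and filled red points have an adjusted p under 0.05 (1 member in the left panel, 31 in the middle and 36 in the right panel). Fits of genes with 3 or fewer reads in a tissue are shown as fitted, and for these the text gives ratios of pooled CPM.

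Frizzled receptors, the cell surface receptors for WNT ligands, held 6 members that were higher in leg muscle than in spinal cord. All 10 were tested, and 6 were higher in leg muscle than in spinal cord (fzd8, Fzd9, FZD4, fzd2, fzd1 and fzd7-a) while 1, fzd3, was lower. Over all transcripts, 25.7% were higher in leg muscle and 29.9% in spinal cord. Against brain, 4 were higher in leg muscle (fzd8, Fzd9, FZD4 and fzd2) and fzd3 was again lower. Their median Log2FC of leg muscle over spinal cord was 1.65, against -0.10 over all transcripts. With library totals it was -0.21, against -1.95 over all transcripts. In that setting 3 Frizzled receptors were called in each direction, and none was called higher in leg muscle than in brain. Markers of other cell types were also higher in leg muscle. Endothelium and mural cell markers (3 of 5 genes matched) summed to 37.4 to 51.8 CPM in leg muscle against 11.5 to 21.4 in spinal cord and 8.38 to 12.5 in brain, and immune cell markers (4 of 5) to 119 to 486 against 44.4 to 154.8 and 21.4 to 32.6. Fibroblast markers (5 of 6) summed to 437 to 21015 CPM in leg muscle against 76.3 to 238 in spinal cord and 58.8 to 61.5 in brain, and the part of such cells in the Frizzled values was not tested.

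fzd8 (002577-RA) was the only member that passed in all 3 comparisons. It stood at 10.8 and 17 CPM in the brains, at 1.88, 3.43, 3.37 and 1.98 in spinal cord 1 to 4 and at 20.7, 70.8, 37.3, 91.2 and 70.7 in leg muscle 1 to 5. Every brain lay above every spinal cord and below every leg muscle, so no tissues overlapped. The same lack of overlap was seen for other members described below, such as WNT2 and GDF11. The means were 13.9 ± 4.36 CPM (SD, n = 2) in brain, 2.67 ± 0.853 (n = 4) in spinal cord and 58.1 ± 28.5 (n = 5) in leg muscle. Leg muscle exceeded spinal cord (Log2FC 4.45 ± 0.47 SE, adjusted p = 1.04e-05) and brain (brain over leg muscle, Log2FC -2.07 ± 0.56 SE, adjusted p = 0.00874). Brain exceeded spinal cord (Log2FC 2.38 ± 0.50 SE, adjusted p = 0.0330), but this call was lost when any single brain or spinal cord library was left out, with adjusted p from 0.0685 to 0.323. The call against brain was lost without brain 1 (Log2FC -1.83, adjusted p = 0.0869).

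FZD4 and Fzd9 were low in both nervous tissues. FZD4 (008390-RA), which also serves as receptor for the ligand norrin in mammals, had 1.18 and 0.953 CPM in the brains, 0.498, 1.16, 0.204 and 0.415 in the spinal cords and 4.72, 12, 8.78, 18.9 and 11.5 in the leg muscles. The lowest leg muscle lay above the highest nervous library, and leg muscle exceeded spinal cord (Log2FC 4.31 ± 0.57 SE, adjusted p = 5.73e-05) and brain (brain over leg muscle, Log2FC -3.38, adjusted p = 0.00230). Without spinal cord 2, leg muscle over spinal cord was Log2FC 4.97, adjusted p = 4.24e-05. Fzd9 (006104-RA) had 1.88 and 1.43 CPM in the brains, 0.612, 0.580, 0.436 and 1.15 in the spinal cords and 9.97, 12, 12.7, 37.9 and 14.7 in the leg muscles. Leg muscle 4 was the highest, the other leg muscles lay close together, and no leg muscle overlapped a nervous library (leg muscle over spinal cord, Log2FC 4.64 ± 0.52 SE, adjusted p = 1.45e-05). Brain over leg muscle was Log2FC -3.40, adjusted p = 0.00106.

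fzd2 was expressed in every library and rose in leg muscle, and fzd3 showed the opposite pattern. fzd2 (003205-RA) had 5.43 and 11.2 CPM in the brains, 5.17, 11.6, 13.4 and 22 in the spinal cords and 26, 71.1, 48.5, 74.3 and 54.3 in the leg muscles. The highest spinal cord, spinal cord 4, came close to the lowest leg muscle, leg muscle 1, without overlap (leg muscle over spinal cord, Log2FC 2.07 ± 0.44 SE, adjusted p = 0.00190; brain over leg muscle, Log2FC -2.72, adjusted p = 0.00295, and Log2FC -3.39, adjusted p = 0.0104 without brain 2). fzd3 (005216-RA), a receptor of the planar cell polarity branch that guides axons in mice, had 6.16 and 5.38 CPM in the brains, 4.29, 7.31, 5.96 and 3.99 in the spinal cords and 0.989, 0.191, 0.366, 0.847 and 0.253 in the leg muscles. Every leg muscle was under 1 CPM, and both nervous tissues exceeded it (leg muscle over spinal cord, Log2FC -3.35 ± 0.49 SE, adjusted p = 0.000126; brain over leg muscle, Log2FC 3.45, adjusted p = 0.000263). Brain and spinal cord overlapped for fzd3.

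The remaining Frizzled receptors showed smaller or unsteady differences. fzd1 had 2.55 to 4.4 CPM in brain, 0.689 to 1.83 in spinal cord and 1.98 to 3.84 in leg muscle, and was higher in leg muscle than in spinal cord (Log2FC 1.13, adjusted p = 0.0253), although the sign turned with library totals (Log2FC -0.75). This call was lost without spinal cord 1, leg muscle 3 or leg muscle 4, with adjusted p from 0.0520 to 0.0590. fzd7-a was likewise higher in leg muscle than in spinal cord (Log2FC 1.23, adjusted p = 0.0388), with a sign that turned with library totals and a call lost without spinal cord 1 or 2 or leg muscle 4 or 5 (adjusted p from 0.0659 to 0.107). FZD6, fzd5 and fzd10-a did not pass in any comparison. FZD6 was at 1.11 to 5.46 CPM in spinal cord and 0.339 to 3.29 in leg muscle, and passed as lower in leg muscle when leg muscle 3 was left out (Log2FC -2.16, adjusted p = 0.00930). fzd5 was at 0.700 to 1.21 CPM in brain and 0 to 0.378 in spinal cord, and passed as higher in leg muscle than in spinal cord in DESeq2 (Log2FC 2.51, adjusted p = 0.0377) and without spinal cord 3 (Log2FC 3.52, adjusted p = 0.0443).

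**Figure D2:**
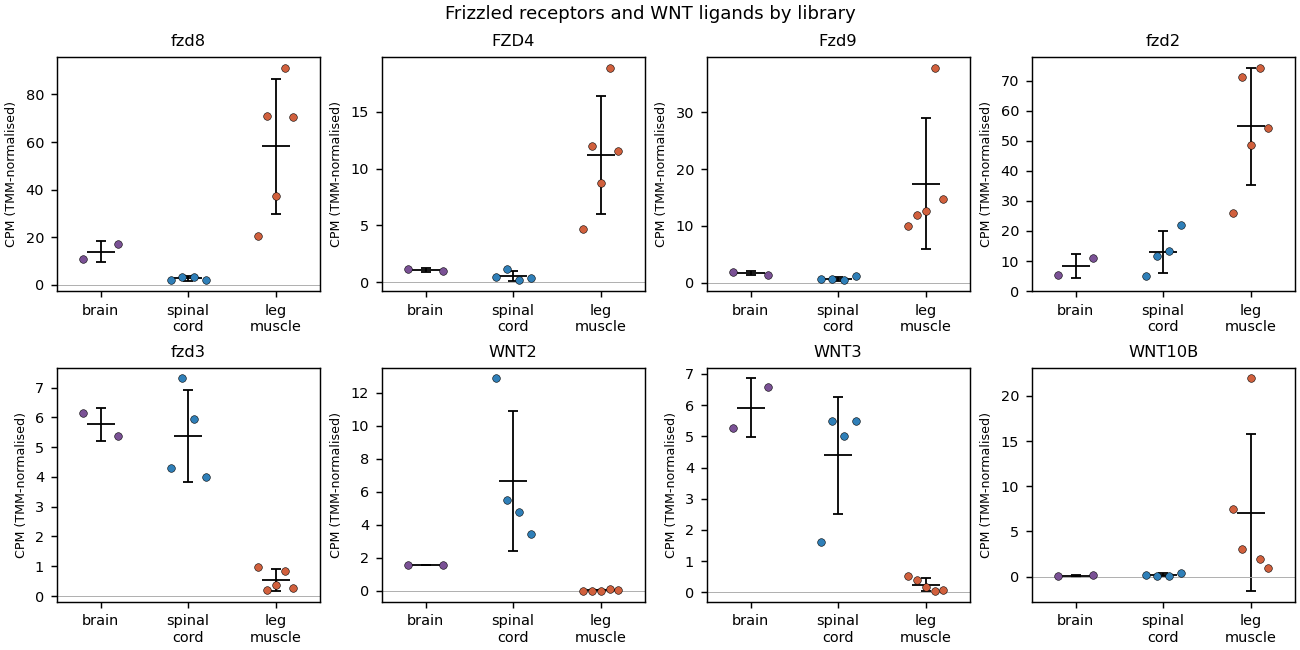
TMM-normalised CPM of 5 Frizzled receptors and 3 WNT ligands in each library of brain, spinal cord and leg muscle, with mean and SD. fzd8, FZD4, Fzd9, fzd2 and WNT10B are higher in every leg muscle than in any nervous library, and fzd3, WNT2 and WNT3 are lower in every leg muscle.

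WNT ligands passed in both directions between leg muscle and nervous tissue. Of 22 rows, 15 were tested. Between brain and leg muscle, 26.7% of these were higher in brain and 20% in leg muscle, near the 28.7% and 21.9% of all transcripts. Between leg muscle and spinal cord, 20% were higher in leg muscle and 40% in spinal cord, against 25.7% and 29.9% of all transcripts. Against leg muscle, 6 were higher in spinal cord (WNT2, WNT3, WNT7A, WNT7B, wnt2b-a and 1 row of wnt5b) and 4 in brain (WNT2, WNT3, WNT7A and WNT7B). Higher in leg muscle were WNT10B, wnt10 and wnt3a against spinal cord, and WNT10B, wnt10 and wnt11 against brain. No WNT ligand passed between brain and spinal cord in edgeR. An unadjusted p under 0.05 was found for 4 of the 15, against 1924 of all 13923 transcripts. DESeq2 called WNT2 and wnt4, and a fit of those tissues alone called wnt3a higher in brain (adjusted p = 0.0438). The ratio of pooled CPM for wnt3a was 29.966 (95% counting interval 9.72 to 149.8).

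WNT2 (001178-RA) was read mainly in nervous tissue. It reached 10 counts only in nervous libraries, a limit on its p-values. It had 1.55 and 1.57 CPM in the brains, 12.9, 5.48, 4.8 and 3.42 in spinal cord 1 to 4 and 0, 0, 0, 0.0847 and 0.0842 in leg muscle 1 to 5, where it took 4 reads in all. The 3 tissues did not overlap. Spinal cord exceeded leg muscle (leg muscle over spinal cord, Log2FC -7.18 ± 0.74 SE, adjusted p = 8.01e-06) and so did brain (brain over leg muscle, Log2FC 5.09, adjusted p = 0.000221). The lower level in brain than in spinal cord did not pass (Log2FC -2.09, adjusted p = 0.228), though DESeq2 called it (Log2FC -2.09, adjusted p = 0.0382). Spinal cord 1, the highest, carried the muscle markers named above, and the part of muscle in its WNT2 value was not tested.

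WNT3 (000683-RA), WNT7A (007310-RA) and WNT7B (009683-RA), ligands that act on neural progenitors and synapses in rodents, were also low in leg muscle. WNT3 had 5.25 and 6.58 CPM in the brains, 1.61, 5.48, 5 and 5.5 in the spinal cords and 0.533, 0.382, 0.183, 0.0423 and 0.0842 in the leg muscles. Spinal cord 1 lay far below the other spinal cords but above every leg muscle (leg muscle over spinal cord, Log2FC -4.24 ± 0.64 SE, adjusted p = 0.000168; brain over leg muscle, Log2FC 4.67, adjusted p = 0.000193). WNT7A had 3.95 and 4.76 CPM in the brains, 7.08, 5.53, 9.74 and 15.8 in the spinal cords and 1.22, 0.191, 2.13, 0.0423 and 0.421 in the leg muscles. Every spinal cord lay above every brain and every brain above every leg muscle, and spinal cord exceeded leg muscle (Log2FC -3.60 ± 0.78 SE, adjusted p = 0.00220). WNT7B had 3.86 to 5.63 CPM in brain and 6.09 to 12.7 in spinal cord, and in leg muscle it ranged from 0 in leg muscle 1 and 2 to 2.26 in leg muscle 3 (leg muscle over spinal cord, Log2FC -3.71 ± 0.94 SE, adjusted p = 0.00580). Brain exceeded leg muscle for WNT7A (Log2FC 2.47, adjusted p = 0.0321) and WNT7B (Log2FC 2.92, adjusted p = 0.0338). These brain calls were fragile. For WNT7A the call was lost without brain 1 or 2, leg muscle 2 or 5 or spinal cord 3 (adjusted p from 0.0524 to 0.139), and for WNT7B without brain 1 or 2, leg muscle 4 or 5 or spinal cord 2 or 3 (adjusted p from 0.0513 to 0.154). Leg muscle 3, the highest leg muscle for both, also moved the values. Without it, WNT7A gave Log2FC 3.28, adjusted p = 0.00514 for brain over leg muscle and Log2FC -4.41, adjusted p = 0.000472 for leg muscle over spinal cord, and WNT7B gave Log2FC 4.30, adjusted p = 0.00145 and Log2FC -5.09, adjusted p = 0.000281.

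WNT10B and its neighbour in the ID order, wnt10, were higher in leg muscle. WNT10B (016067-RA), a ligand that keeps muscle progenitors from becoming fat cells in mice, had 0.0304 and 0.196 CPM in the brains, 0.230, 0.0892, 0.116 and 0.447 in the spinal cords and 7.46, 3.05, 21.9, 1.95 and 0.968 in leg muscle 1 to 5. Every leg muscle exceeded every nervous library, and the leg muscles themselves ranged widely, with leg muscle 3 highest. Leg muscle over spinal cord was Log2FC 4.95 ± 1.03 SE, adjusted p = 0.00169, and brain over leg muscle was Log2FC -5.88, adjusted p = 0.00662. wnt10 (016066-RA) had 4.11, 3.18, 11.6, 0.889 and 0.716 CPM in the leg muscles against 0 to 0.351 in spinal cord and 0 to 0.112 in brain (Log2FC 4.77 ± 1.14 SE, adjusted p = 0.00394; brain over leg muscle, Log2FC -6.04, adjusted p = 0.0110). Without brain 1, neither call against brain held (Log2FC -5.22, adjusted p = 0.0677 for WNT10B and Log2FC -5.22, adjusted p = 0.0876 for wnt10), while without brain 2, which leaves 1 read of WNT10B and none of wnt10 in brain, both passed (adjusted p = 0.0300 and 0.0317). Without leg muscle 3, all 4 calls held at smaller values, with leg muscle over spinal cord at Log2FC 3.88, adjusted p = 0.00205 for WNT10B and Log2FC 3.89, adjusted p = 0.00818 for wnt10, and brain over leg muscle at Log2FC -4.82, adjusted p = 0.00537 and Log2FC -5.16, adjusted p = 0.0150. Without spinal cord 4, leg muscle over spinal cord was Log2FC 5.62, adjusted p = 0.00313 for WNT10B and Log2FC 5.77, adjusted p = 0.00444 for wnt10. In both genes the leg muscles ordered in the same way at the top, leg muscle 3 and then leg muscle 1, as did the skin epithelium markers, at 790 and 208 CPM, and their part in the result was not tested.

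The other WNT ligands moved less. wnt11, a ligand of beta-catenin-independent signaling, had 4.19 and 5.18 CPM in the brains, 7.98 to 12.8 in spinal cord and 4.49 to 18.8 in leg muscle, where the lowest library overlapped the brains. It was higher in leg muscle than in brain (Log2FC -1.51, adjusted p = 0.0190), but the sign turned with library totals (0.34) and the call was lost without either brain (adjusted p from 0.0646 to 0.115). wnt2b-a was higher in spinal cord (0.959 to 3.23 CPM) than in leg muscle (0.304 to 0.674), without overlap (Log2FC -1.83, adjusted p = 0.00740). wnt4, which takes part in neuromuscular synapse formation in mice, had 0.152 and 0.981 CPM in the brains, 1.61, 2.9, 4.36 and 4.6 in the spinal cords, and it spanned 0.931 to 2.62 in leg muscle. Brain and spinal cord did not overlap, yet the difference did not pass (Log2FC -2.56, adjusted p = 0.139), except in DESeq2 (Log2FC -2.56, adjusted p = 0.0107). Without brain 2, wnt4 also passed as lower in brain than in leg muscle (Log2FC -3.37, adjusted p = 0.0190), a sign that turned with library totals in the fit of all libraries (0.25).

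wnt5b and WNT5A, which signal mainly without beta-catenin, each lie on 2 rows. Both wnt5b rows had like values, with means of 2.36 ± 1.19 and 2.76 ± 1.47 CPM in spinal cord against 0.782 ± 0.549 and 0.871 ± 0.672 in leg muscle. Only the second passed, in leg muscle against spinal cord (Log2FC -1.64, adjusted p = 0.0379, against 0.0519 for the first), and its call was lost without any one library except spinal cord 1 and leg muscle 5 (adjusted p from 0.0510 to 0.114). The WNT5A rows did not pass in any comparison, with means of 3 ± 0.592 and 3.69 ± 0.491 CPM in brain, 3.08 ± 0.705 and 3.55 ± 1.04 in spinal cord and 5.08 ± 4.15 and 5.74 ± 4.66 in leg muscle. wnt3a took 3 reads in all spinal cords and was counted as higher in leg muscle than there (adjusted p = 0.0498), with a ratio of pooled CPM of 14.4 (95% counting interval 4.54 to 73.1). That call rested on leg muscle 3, at 1.71 CPM (without it, a ratio of 3.5 and adjusted p = 0.269), and it was also lost without either brain, leg muscle 1 or any spinal cord (adjusted p over all of these from 0.0647 to 0.269). wnt6 did not pass in any comparison.

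Of the 6 rows of secreted WNT inhibitors, which carry 4 names, 4 passed as higher in leg muscle than in spinal cord and none as lower. Over all transcripts these shares were 25.7% and 29.9%. Both rows of SFRP1, which may be pieces of 1 gene, were among the 4 called, and 3 of the calls were lost without leg muscle 5. With library totals none passed as higher and 1 as lower. SFRP2 (011500-RA) had 3.8 and 4.2 CPM in the brains, 14.4, 9.1, 11.8 and 9.36 in the spinal cords and 9.36, 26.3, 13.9, 31.6 and 46.1 in the leg muscles. Every leg muscle lay above both brains (brain over leg muscle, Log2FC -2.67 ± 0.58 SE, adjusted p = 0.00252), and the lowest leg muscle overlapped the spinal cords. Leg muscle over spinal cord was Log2FC 1.19, adjusted p = 0.0266, with a sign that turned with library totals (-0.57) and a call lost without leg muscle 4 or 5 or spinal cord 2 or 4 (adjusted p from 0.0509 to 0.0602). SFRP1 lies on 2 rows that gave the same picture. The row 014817-RA had 1.73 and 2.75 CPM in the brains, 1.38, 1.78, 2.7 and 1.05 in the spinal cords and 1.9, 3.56, 2.44, 7.54 and 32 in leg muscle 1 to 5, where leg muscle 5 was 4.25 times the next. Leg muscle exceeded spinal cord in both rows (Log2FC 2.46, adjusted p = 0.0229 for 014817-RA and Log2FC 2.71, adjusted p = 0.0253 for 014816-RA), and without leg muscle 5 neither passed (Log2FC 1.17, adjusted p = 0.0662 and Log2FC 1.29, adjusted p = 0.0883). These calls were also lost without spinal cord 1 or 4 for 014817-RA and without spinal cord 1 or 2 for 014816-RA (adjusted p from 0.0536 to 0.0662 and from 0.0582 to 0.0883 over these libraries and leg muscle 5). Brain over leg muscle passed for 014817-RA in DESeq2 only (Log2FC -2.04, adjusted p = 0.0425).

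SFRP5 and DKK1 completed the group. The SFRP5 row 017476-RA, with 0 to 0.223 CPM in spinal cord and 0.0636 to 1.22 in leg muscle, passed as higher in leg muscle (Log2FC 3.06, adjusted p = 0.0255), but not without spinal cord 1 or leg muscle 4 (adjusted p from 0.0505 to 0.0531), and without spinal cord 2 it was Log2FC 3.99, adjusted p = 0.0180. Its other row, 018751-RA, did not pass (Log2FC 1.87, adjusted p = 0.113). DKK1 (003074-RA), which blocks LRP5 and LRP6, had 3.83 and 4.76 CPM in the brains, 6.01, 6.06, 3.52 and 3.32 in the spinal cords and 0, 0, 0.122, 1.65 and 5.52 in leg muscle 1 to 5. Leg muscle 5 alone reached the level of the nervous libraries, and DKK1 did not pass in any comparison. Without leg muscle 5 it was lower in leg muscle than in spinal cord (Log2FC -3.27, adjusted p = 0.0191) and than in brain (brain over leg muscle, Log2FC 3.13, adjusted p = 0.0370).

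Among BMP, GDF, activin and TGF-beta ligands, 11 of 15 rows were tested. Between brain and leg muscle 18.2% of these passed, against 50.7% of all transcripts. Between leg muscle and spinal cord 18.2% passed, against 55.6% of all transcripts. None passed between brain and spinal cord, where 2.03% of all transcripts did. These differences in share were not tested. GDF11 and the INHBB row 009707-RA were higher in brain than in leg muscle, GDF11 was higher in spinal cord than in leg muscle, and Gdf5 was higher in leg muscle than in spinal cord. GDF11 (000749-RA), a close relative of myostatin that sets position along the body axis in mice, had 3.4 and 3.59 CPM in the brains, 4.25, 8.25, 10.6 and 9.78 in the spinal cords and 0.761, 1.08, 1.4, 1.61 and 1.09 in the leg muscles. No tissues overlapped, with spinal cord highest and leg muscle lowest (leg muscle over spinal cord, Log2FC -2.78 ± 0.35 SE, adjusted p = 3.65e-05; brain over leg muscle, Log2FC 1.54, adjusted p = 0.00688). The call against brain was lost without brain 2 (Log2FC 1.45, adjusted p = 0.0522). INHBB (009707-RA), an activin and inhibin subunit, took 24 reads in brain and 1 in leg muscle, a ratio of pooled CPM of 32.4 (95% counting interval 5.28 to 1332). It passed (adjusted p = 0.0195), but not in DESeq2 and not without brain 1 (adjusted p = 0.101 and 0.0515). Without brain 2 or any single leg muscle it was below the filter on low counts and was not tested, and the ratio ran from 19.7 without brain 2 to 44.1 without brain 1.

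Gdf5 (016437-RA), a ligand of joint and tendon development, came almost wholly from 2 leg muscles. It had 0, 0.127, 0, 1.35 and 14.1 CPM in leg muscle 1 to 5, 0, 0, 0.0291 and 0 in the spinal cords and 0.0911 and 0 in the brains. Leg muscle 5 was 10.4 times leg muscle 4, and leg muscle 1 and 3 had no reads, so leg muscle overlapped both nervous tissues. The ratio of pooled CPM of leg muscle over spinal cord, where 1 read was counted, was 454 (95% counting interval 80.9 to 17973), and the test passed (adjusted p = 0.0117). Without leg muscle 5 the ratio was 56.4 (95% counting interval 9.46 to 2292) and the mean of the other leg muscles was 0.371 CPM, and without leg muscle 4 or 5 the gene was below the filter on low counts and was not tested. Without spinal cord 3, which held the single read, leg muscle was at least 106-fold higher (adjusted p = 0.0442). It did not pass when spinal cord 1 and 2 were left out together (adjusted p = 0.0926). Against brain, with 3 reads, it did not pass (adjusted p = 0.0783) except without leg muscle 3 (adjusted p = 0.0426). Tendon, cartilage and joint markers summed to 1382 CPM in leg muscle 5, 221 in leg muscle 4 and 4.96 to 20.9 in the other leg muscles. In leg muscle 5, MATN1 made 1065 of that sum and the ACAN rows 142 and 152. The other markers differed less. SCX was at 4.08 CPM there against 2.86 to 5.85 in the other leg muscles, Comp at 16.3 against 1.65 to 12.1 and MKX at 2.02 against 0.127 to 1.14. The part of such tissue in the result was not tested.

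The BMPs themselves did not pass in any comparison. bmp4 (011549-RA) had 5.83 and 15.4 CPM in the brains, 10.9, 21.9, 15.8 and 36.7 in the spinal cords and 8.68, 16, 13.2, 14.8 and 13.7 in the leg muscles, and all 3 tissues overlapped (leg muscle over spinal cord, Log2FC -0.69, adjusted p = 0.139). bmp3 had 6.74 to 7.59 CPM in brain, 6.91 to 19.1 in spinal cord and 3.73 to 44.1 in leg muscle, where leg muscle 5 was 2.39 times the next, and bmp2-a was at 0.972 to 1.23, 0.459 to 1.15 and 0.191 to 2.06. bmp3 passed as higher in leg muscle than in brain without leg muscle 1 (brain over leg muscle, Log2FC -1.62, adjusted p = 0.0498), and its sign over all libraries turned with library totals (0.28). tgfb2 was at 3.35 ± 0.623 CPM in brain, 4.41 ± 1.64 in spinal cord and 2.62 ± 1.18 in leg muscle. INHBA, Bmp8a, gdf6a and gdf10 did not pass either, although DESeq2 called Bmp8a higher in leg muscle than in spinal cord (Log2FC 3.70, adjusted p = 0.0211). INHBA narrowly missed in leg muscle against spinal cord (Log2FC 1.43, adjusted p = 0.0532) and passed in DESeq2 (Log2FC 1.44, adjusted p = 0.0301) and without leg muscle 1 or spinal cord 3 (adjusted p from 0.0258 to 0.0309), and its sign turned with library totals (-0.34). gdf10 passed as higher in brain than in leg muscle without leg muscle 5, where 2 reads then remained, with a ratio of pooled CPM of 22.1 (95% counting interval 5.76 to 188; adjusted p = 0.0207).

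Calls among the receptors of this family fell on few genes. Of 10 rows, 3 were higher in leg muscle than in brain and 1 higher in brain, and 2 were higher in leg muscle than in spinal cord and 1 higher in spinal cord. All of these calls fell on TGFBR2 and TGFBR3. Over all transcripts, 21.9% were higher in leg muscle than in brain and 28.7% higher in brain. Against spinal cord, 25.7% of all transcripts were higher in leg muscle and 29.9% lower. The BMP type II receptor BMPR2 had 42.2 ± 14.9 CPM in brain, 55.8 ± 9.31 in spinal cord and 63.3 ± 11 in leg muscle, and ACVR1, a type I receptor, had 44.8 ± 6.96, 37.7 ± 4.67 and 30.2 ± 7.45 CPM. BMPR2 did not pass in any comparison with all libraries, but did as higher in leg muscle than in brain without brain 1 (adjusted p = 0.0463), with a sign over all libraries that turned with library totals (1.31), and ACVR1 as higher in brain than in leg muscle without leg muscle 3 (adjusted p = 0.0334). Neither row of BMPR1A passed, nor did ACVR1B or ACVR1C.

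The 3 rows named TGFBR2, the type II receptor that binds TGF-beta, went different ways. Row 010262-RA had 1.37 and 1.29 CPM in the brains, 2.64, 1.65, 4.8 and 3.16 in the spinal cords and 9.36, 7.82, 9.996, 11.9 and 11.2 in the leg muscles. Every leg muscle lay above every nervous library (brain over leg muscle, Log2FC -2.92 ± 0.46 SE, adjusted p = 0.000268; leg muscle over spinal cord, Log2FC 1.71, adjusted p = 0.000826, with a sign that turned with library totals, -0.15). Row 010263-RA, next in the ID order, took 1 read in brain and had 0.230, 0.178, 0.901 and 0.351 CPM in the spinal cords and 0.913, 0.890, 0.731, 1.1 and 1.09 in the leg muscles. Its ratio of pooled CPM of leg muscle over brain was 66.7 (95% counting interval 11.7 to 2662; adjusted p = 0.00117). Without brain 1 that ratio was 34.7, and without brain 2, where the read lay, leg muscle was at least 10.7-fold higher. For this row leg muscle and spinal cord overlapped (adjusted p = 0.111), although it passed without spinal cord 3 (Log2FC 1.95, adjusted p = 0.0175), and the sign turned with library totals (-0.72). Row 014104-RA ran the other way, at 1.46 and 1.18 CPM in the brains, 4.63, 6.82, 6.57 and 2.59 in the spinal cords and 0.0761, 0.191, 0.305, 0.169 and 0.547 in the leg muscles. Spinal cord was highest and leg muscle lowest without overlap (leg muscle over spinal cord, Log2FC -4.25 ± 0.52 SE, adjusted p = 3.31e-05; brain over leg muscle, Log2FC 2.29, adjusted p = 0.00613). The call against brain was lost without brain 1 (Log2FC 2.08, adjusted p = 0.0504). Between brain and spinal cord, none of the 3 rows passed, with adjusted p of 0.217, 0.0569 and 0.188, while DESeq2 called the last 2 higher in spinal cord. The annotation does not say whether these rows are separate genes.

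**Figure D3:**
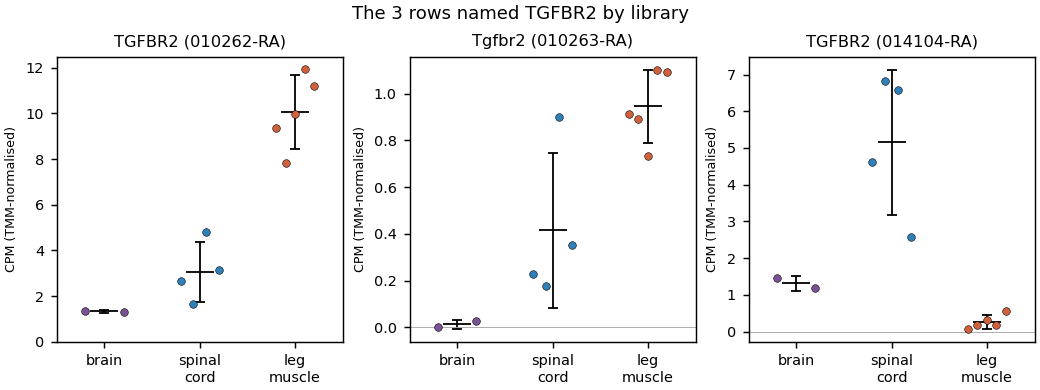
TMM-normalised CPM of the 3 rows annotated TGFBR2 in each library, with mean and SD. Rows 010262-RA and 010263-RA are lowest in brain, at 1.33 ± 0.0548 and 0.0140 ± 0.0198 CPM, and row 014104-RA is lowest in leg muscle, at 0.258 ± 0.181 CPM.

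TGFBR3 (001199-RA), the co-receptor betaglycan, had 0.486 and 0.476 CPM in the brains, 0.536, 0.401, 2.04 and 2.17 in the spinal cords and 5.25, 2.54, 1.89, 5.8 and 4.51 in the leg muscles. Leg muscle lay above brain without overlap (brain over leg muscle, Log2FC -3.04, adjusted p = 0.00878), and this call was lost without either brain (adjusted p from 0.0638 to 0.0641). Leg muscle over spinal cord was Log2FC 1.62, adjusted p = 0.0290, but the sign turned with library totals (-0.25) and the call was lost without spinal cord 1 or 2 or leg muscle 1 or 4 (adjusted p from 0.0559 to 0.0633). The lane 2 spinal cords, 1 and 2, were the lower ones.

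BMP antagonists included a pair that was higher in nervous tissue. nog (008391-RA), or noggin, had 10.1 and 20.2 CPM in the brains, 6.28, 8.52, 7.88 and 7.45 in the spinal cords and 0.457, 1.72, 1.65, 2.37 and 3.12 in the leg muscles. The 3 tissues did not overlap, and both nervous tissues exceeded leg muscle (brain over leg muscle, Log2FC 3.01 ± 0.49 SE, adjusted p = 0.000376; leg muscle over spinal cord, Log2FC -2.00, adjusted p = 0.00210). Without brain 2, the higher brain, brain over leg muscle was Log2FC 2.38, adjusted p = 0.0104. grem1 (001673-RA), or gremlin, had 2.31 and 3.56 CPM in the brains, 2.72, 1.69, 2.44 and 7.22 in the spinal cords and 0, 0.0636, 0.183, 0.0423 and 0.253 in the leg muscles, where 11 reads were counted in all. It reached 10 counts only in nervous libraries, a limit on its p-values. Nervous tissue and leg muscle did not overlap (brain over leg muscle, Log2FC 4.62, adjusted p = 0.000413; leg muscle over spinal cord, Log2FC -4.89 ± 0.72 SE, adjusted p = 0.000129). Without leg muscle 5 these were Log2FC 5.23, adjusted p = 0.000345 and Log2FC -5.49, adjusted p = 0.000132, and without spinal cord 4 the second was Log2FC -4.24, adjusted p = 0.000284. The related nog2, at 5.17 ± 2.32 CPM in brain, 9.18 ± 3.87 in spinal cord and 17.4 ± 14.1 in leg muscle, did not pass (Log2FC -1.75, adjusted p = 0.0749 for brain over leg muscle), except in DESeq2 and without leg muscle 1 (adjusted p = 0.0252 and 0.0255), and its sign turned with library totals (0.16). Bmper did not pass.

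FGF ligands included genes with few or no reads outside leg muscle. Of 9 rows, 8 were tested. Between brain and leg muscle, 25% of these were called higher in brain and 37.5% in leg muscle, against 28.7% and 21.9% of all transcripts. Between leg muscle and spinal cord, 37.5% were called higher in leg muscle and 12.5% in spinal cord, against 25.7% and 29.9% of all transcripts. FGF23, fgf4-a and Fgf6 were higher in leg muscle than in both nervous tissues, FGF1 was higher in both nervous tissues, and fgf3 was higher in brain than in leg muscle. FGF23, fgf4-a and Fgf6 reached 10 counts only in leg muscle libraries, and fgf3 only in the brains. These genes thus passed the filter on low counts only through the tissue where they were high, a limit on their p-values. The same limit holds for members described above. WNT2, WNT3 and grem1 reached 10 counts only in nervous libraries, Gdf5 only in leg muscle 4 and 5 and INHBB (009707-RA) only in 1 brain. FGF8 and both rows of FGF10 did not pass in any comparison.

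Fgf6 (009718-RA), which is expressed in skeletal muscle and active in muscle regeneration in mice, had 11.2, 3.62, 3.9, 4.53 and 1.14 CPM in leg muscle 1 to 5. It took 1 read in brain, and 5 reads in spinal cord, all in spinal cord 1, one of the libraries that carried muscle markers. The part of muscle in those reads was not tested. Leg muscle over brain was a ratio of pooled CPM of 298 (95% counting interval 53.1 to 11791; adjusted p = 0.00235), and leg muscle over spinal cord was Log2FC 6.59 ± 1.13 SE, adjusted p = 0.000432. Without spinal cord 1, leg muscle was at least 127-fold higher than spinal cord (adjusted p = 0.000346). Without brain 1 the ratio over brain was 155, and without brain 2 leg muscle was at least 47.6-fold higher. fgf4-a (007423-RA) had 3.2, 4.51, 4.51, 2.84 and 0.505 CPM in the leg muscles, 3 reads in brain and none in spinal cord. It was at least 109-fold higher in leg muscle than in spinal cord, at the floor of 3 counts over the tissue (adjusted p = 0.000323), and its ratio of pooled CPM over brain was 65.7 (95% counting interval 22.2 to 321; adjusted p = 0.00569), which was 31.5 without brain 2 and at least 34.2 without brain 1. Leg muscle 5 was the lowest leg muscle for both Fgf6 and fgf4-a. FGF23 (013578-RA), a phosphate-regulating hormone made in mammalian bone, had 2.36, 0.191, 0.975, 1.65 and 0.421 CPM in the leg muscles and no reads in any brain or spinal cord. It was at least 24.4-fold higher than in brain and 40.7-fold higher than in spinal cord (adjusted p = 0.00788 and 0.00167), and with 1 brain left out the bound against brain was 11.7 or 12.7.

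FGF1 (008155-RA), an FGF without a signal peptide that is abundant in neurons of the rodent spinal cord, had 7.41 and 8.27 CPM in the brains, 28.4, 27.5, 19.8 and 11.4 in the spinal cords and 1.45, 0.763, 0.731, 2.41 and 1.01 in the leg muscles. The tissues did not overlap, with spinal cord above brain and brain above leg muscle. Spinal cord and brain exceeded leg muscle (leg muscle over spinal cord, Log2FC -4.08 ± 0.42 SE, adjusted p = 7.44e-06; brain over leg muscle, Log2FC 2.61, adjusted p = 0.000530), while brain over spinal cord did not pass (Log2FC -1.47, adjusted p = 0.216). fgf3 (007422-RA), which patterns the hindbrain and ear in the embryo, had 0.516 and 0.728 CPM in the brains, 0.0383, 0.223, 0.0581 and 0 in the spinal cords and 2 reads in leg muscle. Brain over leg muscle was a ratio of pooled CPM of 29 (95% counting interval 7.56 to 247; adjusted p = 0.00607). With 1 library left out the ratio ran from 21.6 without leg muscle 5 to 48.2 without leg muscle 2. The call was lost in the edgeR fit with a replicate block (adjusted p = 0.0562). Both brains also lay above all spinal cords without passing (Log2FC 2.96, adjusted p = 0.223).

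Calls among the FGF receptors went in both directions. fgfr2 (008863-RA) and FGFR3 (002054-RA), which are carried by glia in the mammalian nervous system, were higher in spinal cord than in leg muscle, while FGFRL1 (012164-RA), a receptor without a kinase domain, was higher in leg muscle. fgfr2 had 65.7 and 80.6 CPM in the brains, 119.6, 128, 175 and 186 in the spinal cords and 5.18, 2.54, 21.5, 3.34 and 13.1 in the leg muscles, without overlap (leg muscle over spinal cord, Log2FC -4.06 ± 0.58 SE, adjusted p = 0.000114; brain over leg muscle, Log2FC 3.0, adjusted p = 0.00196). FGFR3 had 31.2 and 34.2 CPM in the brains, 116, 120.4, 166 and 95.8 in the spinal cords and 9.89, 1.27, 39.9, 11.8 and 30.9 in the leg muscles. Spinal cord stood above all other libraries (leg muscle over spinal cord, Log2FC -2.73 ± 0.67 SE, adjusted p = 0.00487), while leg muscle 3 exceeded both brains and brain over leg muscle did not pass (Log2FC 0.80, adjusted p = 0.415). Brain over spinal cord did not pass in the fit of all libraries (Log2FC -1.93, adjusted p = 0.383), but did when only those tissues were fitted (Log2FC -1.92, adjusted p = 0.0123).

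FGFRL1 had 3.13 and 4.68 CPM in the brains, 4.32, 5.57, 5.26 and 3.32 in the spinal cords and 9.13, 10.5, 9.75, 23.4 and 18.7 in the leg muscles. No nervous library reached the lowest leg muscle (leg muscle over spinal cord, Log2FC 1.63 ± 0.35 SE, adjusted p = 0.00196, with a sign that turned with library totals, -0.21; brain over leg muscle, Log2FC -1.87, adjusted p = 0.00546), and the call against brain was lost without brain 1 (Log2FC -1.67, adjusted p = 0.0614). fgfr1 (008040-RA), the main FGF receptor of muscle progenitors in mice, had 26.3 and 29.4 CPM in the brains, 27.5, 33.2, 34.5 and 57.5 in the spinal cords and 45.7, 49.2, 51.7, 75.4 and 73.9 in the leg muscles. It was higher in leg muscle than in brain (Log2FC -1.09, adjusted p = 0.0191 for brain over leg muscle), with a sign that turned with library totals (0.73) and a call lost without either brain (adjusted p from 0.0563 to 0.0887). Against spinal cord it missed the threshold (Log2FC 0.63, adjusted p = 0.0561, a sign that also turned, -1.18), and passed in DESeq2 (Log2FC 0.64, adjusted p = 0.0285) and without brain 1 or 2, leg muscle 1 or spinal cord 4 (adjusted p from 0.00668 to 0.0446).

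**Figure D4:**
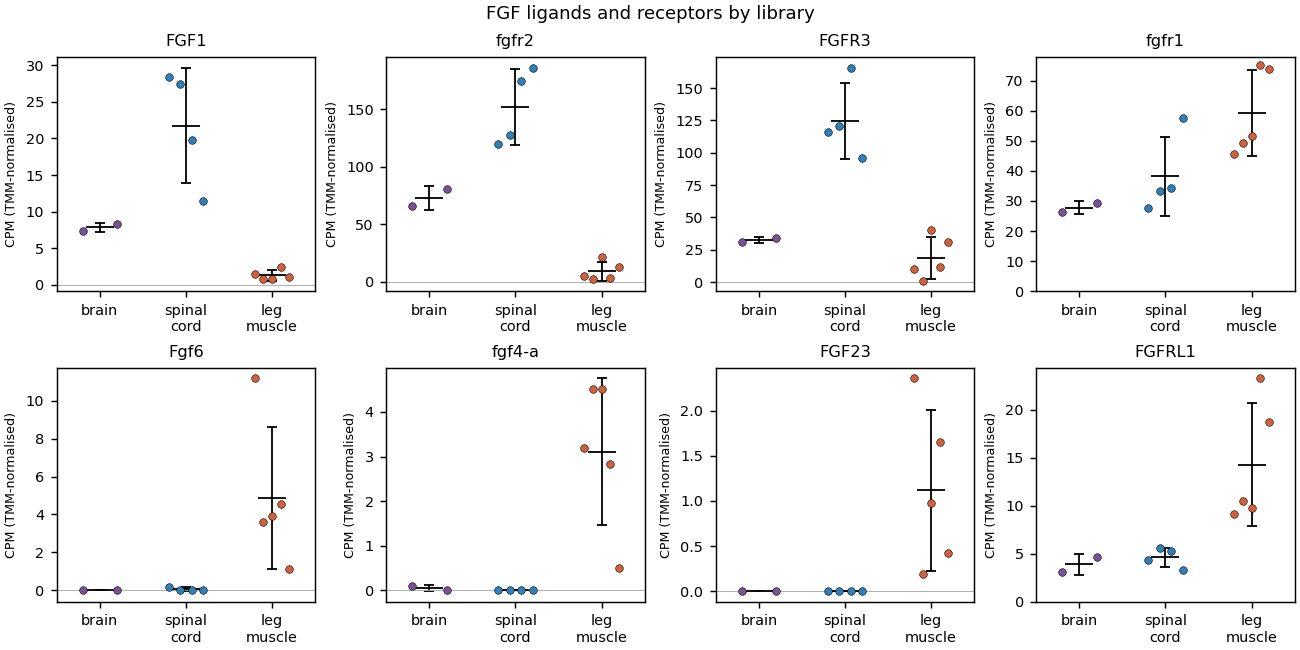
TMM-normalised CPM of 4 FGF receptors and 4 FGF ligands in each library, with mean and SD. FGF1 and fgfr2 are higher in every nervous library than in any leg muscle, and Fgf6, fgf4-a, FGF23 and FGFRL1 are higher in every leg muscle than in any nervous library.

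Among the IGF genes, 7 of the 11 rows tested bear the name IGF2R. None of the 11 passed between brain and spinal cord or between brain and leg muscle, at an adjusted or an unadjusted p under 0.05 in edgeR or at an adjusted p under 0.05 in DESeq2, and 1, igf2-b, was higher in leg muscle than in spinal cord. DESeq2 called Igfbp4 as well in that comparison (Log2FC 2.94, adjusted p = 0.0210). The 7 rows named IGF2R, a receptor that in mammals takes up IGF2 for breakdown, gave no call in any comparison. Their median Log2FC was -0.53 for brain over spinal cord, -0.17 for brain over leg muscle and -0.50 for leg muscle over spinal cord. Scaled by library totals, 5 of these rows were called higher in brain than in leg muscle and 7 higher in spinal cord. The row with the most reads, 010476-RA, had 13.7 and 6.75 CPM in the brains, 14.7, 12.3, 16.8 and 6.97 in the spinal cords and 18.3, 9.41, 6.83, 15.2 and 11.4 in the leg muscles. The tissues overlapped fully. In all 7 rows brain 1 lay above brain 2.

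igf2-b (014614-RA), the IGF2 ligand, had 0.638 and 0.532 CPM in the brains, 0.612, 0.223, 0.494 and 0 in the spinal cords and 0.457, 0.636, 1.1, 2.16 and 7.75 in leg muscle 1 to 5. Leg muscle 5 was 3.59 times the next, and the lower leg muscles overlapped both nervous tissues. Leg muscle exceeded spinal cord (Log2FC 2.86 ± 1.04 SE, adjusted p = 0.0349), but not without leg muscle 5 (Log2FC 1.73, adjusted p = 0.122), nor without spinal cord 2 or 3 (adjusted p = 0.0814 and 0.0531). Igfbp4 (003288-RA), an IGF binding protein, had 8.07, 2.23, 6.89, 1.69 and 2.65 CPM in the leg muscles, 0.577 and 0.532 in the brains and 2.22, 0, 0.0581 and 0 in the spinal cords, of which spinal cord 1 held nearly all reads. It did not pass with all libraries (Log2FC 2.91, adjusted p = 0.0669), and without spinal cord 1 it was higher in leg muscle than in spinal cord by 357 reads against 2, a ratio of pooled CPM of 169.8 (95% counting interval 46.7 to 1407; adjusted p = 0.000192), and higher than in brain (brain over leg muscle, Log2FC -3.03, adjusted p = 0.0179). Igfals, the acid-labile subunit of the circulating IGF complex, and Igfbp2 did not pass in any comparison.

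Of the members not tested, with 1 to 57 reads over all 11 libraries, IGF1 took the most. IGF1 (015526-RA), the ligand tied to muscle growth, had 48 reads in leg muscle, 8 in spinal cord and 1 in brain, with 1.52 CPM in leg muscle 5 and none in leg muscle 1 and 3. WNT9B had 28 reads in leg muscle, 9 in spinal cord and 8 in brain. igfbp5 had 28, 9 and 1, and wnt1 had 13, 3 and 11. The 2 rows of WNT8B had 21 reads in brain, none in spinal cord and 9 in leg muscle. The INHBB row 009708-RA had 25 reads in spinal cord, 2 in brain and none in leg muscle, and Fgf20 had 7 in brain, 1 in spinal cord and none in leg muscle. wnt10a, wnt8, GDF9, igf3, BMP10, bmp7 and WNT9A took 1 to 22 reads each. No difference between tissues was tested for these 15 rows.

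A group of 6 rows bears a pathway name but encodes neither a ligand nor a receptor. bmp1, a protease that trims procollagen, FGFR1OP2 and both rows of the RNA-binding protein igf2bp3-b did not pass in any comparison. BMP2K, a kinase of vesicle transport, was higher in brain than in leg muscle (Log2FC 1.04, adjusted p = 0.0318), a call lost without brain 1 or 2, leg muscle 1, 2 or 5 or spinal cord 3 (adjusted p from 0.0534 to 0.200). tgfb1i1, a focal adhesion protein also called Hic-5, had 3.08 to 4.31 CPM in brain, 2.81 to 5.5 in spinal cord and 5.79 to 13.2 in leg muscle. It was higher in leg muscle than in spinal cord (Log2FC 1.06, adjusted p = 0.0181) and brain (brain over leg muscle, Log2FC -1.24, adjusted p = 0.0328), and both signs turned with library totals (-0.72 and 0.57). The call against brain was lost without brain 1 or 2 or leg muscle 4 or 5 (adjusted p from 0.0528 to 0.172).

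The leg muscles differed among themselves in a subset of members. Leg muscle 5 had more than 2 times the next highest leg muscle in 11 of the 85 members tested, or 12.9%, against 6.16% of all transcripts tested, and leg muscle 3 in 7, or 8.24%, against 6.10%. The members high in leg muscle 5 were Gdf5, Bmp8a, gdf10, Igfals, both rows of SFRP1, igf2-b, DKK1, bmp3, fzd5 and a row of wnt5b. Bmp8a had 0, 0.254, 0, 0.804 and 8.51 CPM in leg muscle 1 to 5 and Igfals 1.07, 0.890, 0.914, 1.95 and 10.021. In the same library COL1A2, a fibroblast collagen (006064-RA), was at 17716 CPM against 116 to 1516 in the others, and MATN1, a cartilage protein, at 1065 against 0.305 to 165. The members high in leg muscle 3 were WNT10B, wnt10, fzd10-a, wnt3a, WNT7B, wnt6 and FZD6. fzd10-a had 5.33, 0.318, 12.9, 0.0847 and 0.0421 CPM in leg muscle 1 to 5, so that leg muscle spanned from far below to above the brains (8.5 and 8.74). EPCAM, an epithelial adhesion protein, was at 224 CPM in leg muscle 3, 62.0 in leg muscle 1 and 0 to 7.44 in the other 3. The cartilage and skin marker lists were chosen after these libraries were seen, and the part of other tissue in these differences was not tested.

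**Figure D5:**
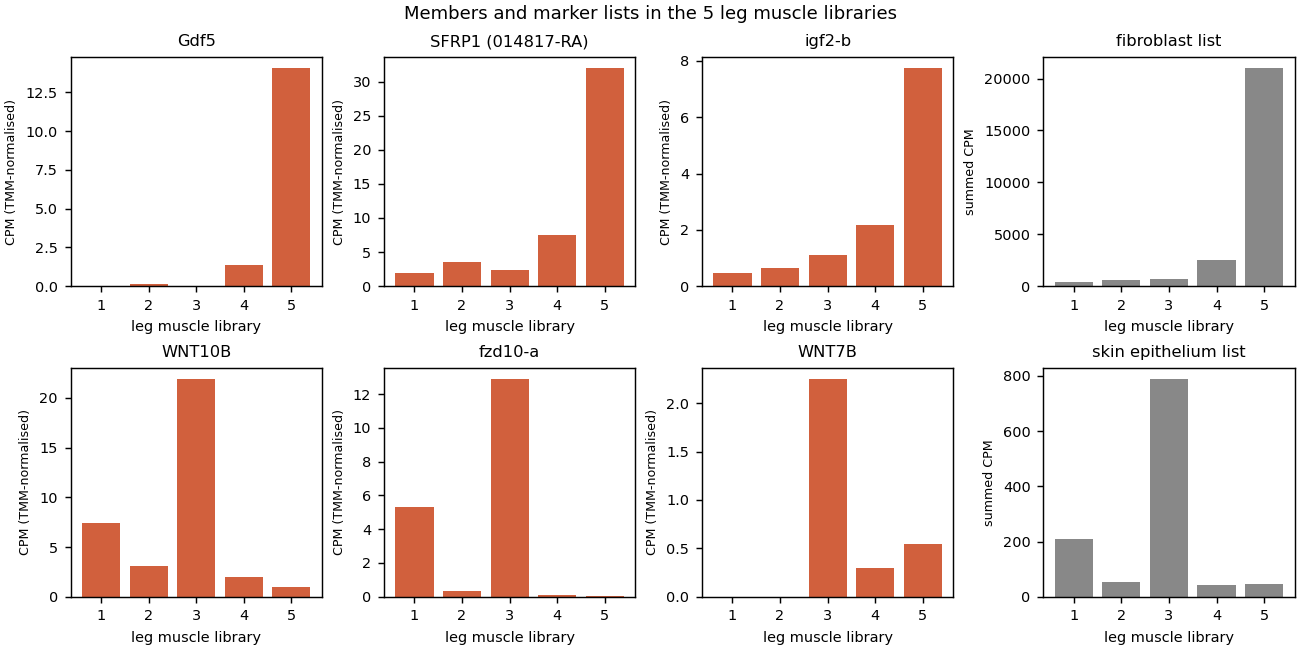
TMM-normalised CPM of 6 members in each of the 5 leg muscle libraries (orange), and the summed CPM of fibroblast markers and of skin epithelium markers (grey). Gdf5, SFRP1, igf2-b and the fibroblast list are highest in leg muscle 5, and WNT10B, fzd10-a, WNT7B and the skin epithelium list are highest in leg muscle 3.

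Other genes of the same pathways, from lists of named partners, were counted in the same way. Several of these names lie on more than 1 row, so counts are of rows. Of 25 rows tested of 18 WNT partners (co-receptors, Dishevelled proteins, beta-catenin, transcription factors and targets), with LRP6 on 4 rows, CTNNB1, or beta-catenin, on 3 and ROR1 and ROR2 on 2 each, 1 was higher in brain than in spinal cord, 7 in brain and 3 in leg muscle in the comparison of those tissues, and 4 in leg muscle and 7 in spinal cord. The 7 higher in brain were rows of 5 genes, 3 of them of CTNNB1, and the 7 in spinal cord were rows of 6 genes. The 1 against spinal cord was Tcf7l2, the transcription factor that beta-catenin joins, with 61.1 and 85.3 CPM in the brains and 2.14 to 4.92 in spinal cord (Log2FC 4.41 ± 0.42 SE, adjusted p = 0.000359), and 11.7 to 23.5 in leg muscle. LRP5, the co-receptor of the Frizzled proteins, was higher in leg muscle at 21.7 to 27.6 CPM against 2.95 to 5.24 in spinal cord and 1.82 and 1.74 in the brains (leg muscle over spinal cord, Log2FC 2.62 ± 0.24 SE, adjusted p = 2.93e-06). AXIN2, a feedback inhibitor and common target of beta-catenin, was higher in nervous tissue, at 61.5 and 41.4 CPM in the brains and 22.6 to 33.3 in spinal cord against 1.82 to 5.3 in leg muscle (brain over leg muscle, Log2FC 4.12 ± 0.37 SE, adjusted p = 3.95e-06).

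Of 15 rows tested of 13 BMP and TGF-beta partners, 3 were higher in brain and 5 in leg muscle, and against spinal cord 6 were higher in leg muscle and 3 lower, and the 2 rows of SMAD4 were called in opposite directions. fst, or follistatin, which binds activin and myostatin, was higher in leg muscle at 18.1 to 46.2 CPM against 0.863 to 2.56 in spinal cord and 1.85 to 1.94 in brain (leg muscle over spinal cord, Log2FC 4.41 ± 0.41 SE, adjusted p = 3.34e-06). id4, a BMP-induced gene in many cells, was at 481 to 773 CPM in brain and 355 to 439 in spinal cord against 4.4 to 26 in leg muscle (brain over leg muscle, Log2FC 5.67 ± 0.57 SE, adjusted p = 8.86e-06). Of 13 rows of 12 FGF partners, 6 were higher in brain and 2 in leg muscle, and 2 in leg muscle and 6 in spinal cord, where the 2 rows of DUSP6 were called in opposite directions. Etv4, a transcription factor induced by FGF, was higher in leg muscle (94.4 to 322 CPM against 24.9 to 30.5 in brain, Log2FC -3.01, adjusted p = 0.000231 for brain over leg muscle), and the adaptor FRS3 was higher in brain (5.98 to 6.22 against 1.45 to 1.78, Log2FC 1.88, adjusted p = 0.000170).

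Of 13 rows of 11 IGF partners, none was higher in brain and 6 were higher in leg muscle than in brain, and against spinal cord 8 were higher in leg muscle and 2 lower. The lowest p-values in that direction fell on Trim63 and FBXO32, muscle ubiquitin ligases that act in protein breakdown and are held down by IGF signaling in mammals. Trim63 had 397 to 1631 CPM in leg muscle against 0.320 to 7.81 in spinal cord and 0.304 to 0.364 in brain (leg muscle over spinal cord, Log2FC 8.13, adjusted p = 2.88e-05), and FBXO32 had 21.7 to 158 against 0.256 to 0.995 and 0.560 to 1.43 (Log2FC 6.69, adjusted p = 3.73e-05). Without spinal cord 1, Trim63 gave Log2FC 9.48, adjusted p = 9.27e-06. None of the BMP, FGF or IGF partner rows passed between brain and spinal cord. In edgeR, 1 of 15, 3 of 13 and 2 of 13 had an unadjusted p under 0.05, against 1924 of all 13923 transcripts. DESeq2 called 2 IGF rows and 1 further WNT row higher in spinal cord than in brain and no BMP or FGF row. Shares called in the partner lists ranged from 40% to 61.5% between brain and leg muscle and from 44% to 76.9% between leg muscle and spinal cord, against the 50.7% and 55.6% of all transcripts given above. Scaled by library totals, the WNT and FGF partner calls moved to 19 and 11 higher in brain than in leg muscle, with 1 lower in each list, and to 21 and 12 higher in spinal cord than in leg muscle with none lower, and LRP5 missed the threshold against spinal cord (adjusted p = 0.0533).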

How the data were processed

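Total RNA from 2 brain, 4 spinal cord and 5 leg muscle samples was made into stranded mRNA libraries. The authors mapped the reads with STAR to the genome they had assembled, and htseq-count gave the reads of each transcript. Its strand setting is not given in the sources used here. The deposited values are raw counts, 1 file per library. Reads inside transcripts were 24.7% to 26.5% of entries in brain, 25.3% to 28.1% in spinal cord and 41.1% to 44.5% in leg muscle, and unassigned entries were left out. Intervals given for genes with 1 to 3 reads in a tissue cover counting error only.

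Counts were filtered with filterByExpr (minimum count 10, minimum total 15) and scaled by TMM. The factors were 1.57 to 2.09 for the nervous libraries, and those of the muscle libraries were 0.389 to 0.752. All 11 libraries entered 1 edgeR 4.0.16 quasi-likelihood fit with a coefficient per tissue (R 4.3.3, limma 3.58.1), which was tested on simulated data. DESeq2 1.42.0 was an alternative. Other alternatives were RLE factors, library totals, other filters, removal of the 20 most abundant rows, a fit of 2 tissues at a time, a replicate block and leaving out each library or the lane 2 libraries. Where a tissue had no reads, 3 counts over its libraries stood in as a limit, and 3 counts were worth 0.0841 to 0.228 CPM in 1 library.

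Genes were matched by the first word of their annotated name, and pathway members and partner and marker lists were chosen with earlier results of these data known. By rule the text names members that passed between brain and spinal cord and the next 6, the 10 with the lowest p per direction against leg muscle, 2 per role, those not tested, and up to 4 partners per direction. That made 34 tested members, and the other tested members were named after their values were seen. No lengths, genome or sequences were used here.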

Additional observations from a re-analysis of the deposited data

Results flagged for a closer look

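Of 170 sets of 4 spinal cord or 5 leg muscle values among the tested members, 9 held a library far from the rest of its tissue. For normally distributed values chance gives about 1 in 20, but that rate does not hold for sets with many zeros. A set with reads in a single library is always flagged, which was the case for Fgf6, Gdf5 and INHBB (009707-RA). WNT3 was at 1.61 CPM in spinal cord 1 against 5.00 to 5.50 in the other 3 spinal cords. Igfbp4 was at 2.22 CPM in spinal cord 1 against 0 to 0.0581 in the others, and Fgf6 was at 0.191 CPM there against 0. Gdf5 was at 0.0291 CPM, a single read, in spinal cord 3 against 0 in the others. In leg muscle 5, fgf4-a was at 0.505 CPM against 2.84 to 4.51 in the other 4 leg muscles, and gdf10 was at 1.01 CPM against 0 to 0.0847. In leg muscle 1, wnt11 was at 4.49 CPM against 12.9 to 18.8, Bmper was at 0 against 0.445 to 0.853, and INHBB (009707-RA) was at 0.0761 CPM, a single read, against 0.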

How the results depend on the processing

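Scaling changed most. By library totals alone, 0 members were higher in brain than in spinal cord, 35 were higher in brain and 6 in leg muscle, and 9 were higher in leg muscle and 45 in spinal cord. The sign of brain over leg muscle turned for 30 members, of which 19 were called under neither scaling. The other 11 were BMPR2 (1.31), igf2bp3-b (007049-RA, 1.69, and 007050-RA, 1.42), fgfr1 (0.73), IGF2R (010476-RA, 1.71, 010476-RB, 1.81, and 010477-RA, 1.73), wnt11 (0.34), bmp4 (1.45), ACVR1C (1.71) and tgfb1i1 (0.57). That of leg muscle over spinal cord turned for 26 members, 13 called under neither scaling, and the other 13 were TGFBR3 (-0.25), BMPR2 (-1.67), bmp1 (-1.34), igf2bp3-b (007049-RA, -1.63), fgfr1 (-1.18), TGFBR2 (010262-RA, -0.15), wnt11 (-1.53), SFRP2 (-0.57), fzd1 (-0.75), FGFRL1 (-0.21), FGF8 (-1.61), fzd7-a (-0.62) and tgfb1i1 (-0.72). Between brain and spinal cord, fits of only those tissues called 2 members higher in brain and 2 in spinal cord, and DESeq2 called 4 in spinal cord. The replicate block, removal of the lane 2 libraries, and removal of spinal cord 1 with leg muscle 5 (chosen after seeing the data) each left 0 higher in brain. Each of the last pair of removals also left 12 higher in leg muscle than in spinal cord. Libraries with the same replicate number deviated from their tissue means with correlations of -0.049 to 0.217. Libraries of unlike number were not compared, so these values cannot tell whether samples were paired. With the replicate block 12 and 15 members passed between brain and leg muscle and 16 and 15 between leg muscle and spinal cord. Leaving out 1 library at a time gave 0 to 1 higher in brain and 0 to 0 in spinal cord, 9 to 14 higher in brain and 10 to 19 in leg muscle, and 16 to 23 higher in leg muscle and 13 to 16 in spinal cord. The 9 came without brain 1 and without brain 2, and the 10 without brain 1. The cause of these shifts was not tested.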
